A study of Mus musculus with 6 samples.

Results

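The genes described here are the nuclear genes for subunits of oxidative phosphorylation, chosen by symbol: protein-coding nuclear genes whose mouse symbol begins with Ndufa, Ndufb, Ndufc, Ndufs or Ndufv and a digit, with Cox4 to Cox8, with Uqcr or with Atp5, or is Sdha, Sdhb, Sdhc or Sdhd. The rule found 84 genes among the 22483 genes of the table. Of these, 35 belong to complex I, 4 to complex II, 8 to complex III, 20 to complex IV and 17 to complex V. The rule leaves out subunits with other names, such as Cyc1 and Ndufab1, and takes in Atp5s, which is named like a subunit but is not a part of the enzyme. Of the 84 genes, 81 passed the filter on low values and were tested; the other 3 (Cox7b2, Cox8b and Cox8c) are tissue-restricted isoforms of complex IV.

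Stromal cells were sorted from the muscle of young adult Swiss white mice, after cells with CD45, CD31 or CD11b on their surface had been gated out. They came from muscle on day 3 after cardiotoxin (20 uM by injection), a venom peptide that destroys muscle fibres, and from the uninjected muscle of the opposite leg as control. The sorted populations were CD140a(-)/Sca1(+), CD140a(+)/Sca1(-) and CD140a(+)/Sca1(+), where CD140a is the PDGF receptor alpha and Sca1 the product of Ly6a. Each population gave 1 injured and 1 control library of 3' ends of mRNA, 6 libraries in all. The 3 populations therefore stood in as replicates of the injury comparison, and p-values measure only the spread between these libraries; the labels do not say how many animals gave cells to a library. The labels name tibialis anterior as the muscle, whereas the study's text names gastrocnemius and soleus for the acute injury. In sorted cells as in any bulk sample, fewer cells of a type and less RNA per cell cannot be told apart.

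Oxidative phosphorylation takes electrons from NADH through complex I and from succinate through complex II, passes them by ubiquinone, complex III and cytochrome c to oxygen at complex IV, and uses the proton gradient so made to drive ATP synthase, complex V. Most subunits are encoded in the nucleus and imported, whereas the core membrane subunits of complexes I, III, IV and V are encoded by mitochondrial DNA, so that each of these is put together from the products of both genomes. Muscle fibres are rich in these enzymes and have their own isoforms of several complex IV subunits.

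Depth, estimated from the steps of the low values, was 2094353 to 14173590 reads per library. Normalized counts below are the deposited log2 values with the authors' transformation undone. The injured CD140a(+)/Sca1(-) library stood apart: 69.1% of its genes were at 0 in the table, whereas the other 5 libraries had 28.2% to 39.0%. Its estimated depth of 2094353 reads was close to the 2346691 of the control CD140a(+)/Sca1(+) library, which had 33.4% of genes at 0. Ly6a was at 1177, 2.09 and 4099 normalized counts in injured CD140a(-)/Sca1(+), CD140a(+)/Sca1(-) and CD140a(+)/Sca1(+) cells, against 5850, 70.4 and 253 in control, so that the control CD140a(+)/Sca1(+) library was far below the other Sca1(+) libraries. Pdgfra, which encodes CD140a, went against the sort in control cells. It was at 211 normalized counts in CD140a(-)/Sca1(+) cells against 33.6 in CD140a(+)/Sca1(-) and 26.3 in CD140a(+)/Sca1(+) cells. After injury, Pdgfra plus Ly6a came to 1511.7 in the CD140a(-)/Sca1(+) library, of which Ly6a made up 1177. For CD140a(+)/Sca1(-) the sum was 205.47, with Ly6a at 2.09, so that Pdgfra was lower there than in the injured CD140a(-)/Sca1(+) library. For CD140a(+)/Sca1(+) the sum was 5338.5, with Ly6a at 4099, so that Pdgfra was highest in this injured library. Genes of muscle fibres held at most 0.00609% of any library. Markers of satellite cells and myoblasts held 0.105%, 0.0836% and 0.0162% of the injured CD140a(-)/Sca1(+), CD140a(+)/Sca1(-) and CD140a(+)/Sca1(+) libraries against 0.0743%, 0.00657% and 0.00312% of the controls, nearly all of it Vcam1, which was called higher and which other stromal cells also express, while Pax7 was at 0 in all injured libraries and at most 6.18 normalized counts in control. Macrophage markers held 0.0187%, 0.0302% and 0.0110% of the injured against 0.0147%, 0.00797% and 0.00395% of the control libraries, with 1, Lyz2, called higher. Col1a1, a fibroblast collagen, was at 652 normalized counts or more in each library. Fibroblast markers held 2.21% to 3.33% of the injured and 0.189% to 0.435% of the control libraries, with 5 of 9 called higher after injury. By contrast, 6 of 8 endothelial, 4 of 5 red blood cell and 4 of 4 Schwann cell markers were called lower. Of 8 tested pericyte and smooth muscle markers, 3 were called lower and 1 higher. Their list held 0.0119%, 0.0334% and 0.0117% of the injured libraries in the order used above, against 0.0233%, 0.0145% and 0.0302% of the controls.

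After injury, none of the 81 tested members was called higher or lower. A call needed an unadjusted p under 0.05 in limma, a linear model with moderated variances, and at least a 3-fold change on the deposited log2 scale. By this rule 2.3% of all tested genes were called higher and 3.46% lower. At p under 0.05 with no fold limit, 2 members passed, Cox7b and Atp5o, or 2 of 81 beside 7.99% of all tested genes. The median change over the members was -0.19 on the deposited log2 scale, and the median over all tested genes was -0.33. Over the 59 members with reads in all 6 libraries the median was 0.03, beside 0.04 over all genes of that kind. Averaged over the 3 populations, the members thus lay close to the median of all genes. Without the CD140a(+)/Sca1(+) libraries 5 of 81 members (6.17%) were called lower, beside 3.62% of all tested genes in that fit. That fit kept the injured CD140a(+)/Sca1(-) library, in which 27.2% of tested members and 55.3% of all tested genes were at 0.

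The populations differed in order. In CD140a(+)/Sca1(+) cells, 68 of 81 members were higher in the injured than in the control library, beside 54.0% of all tested genes, and the median difference was 0.70, beside 0.11. In CD140a(-)/Sca1(+) cells only 24 of 81 were higher, beside 36.8% of all genes, and the median was -0.40, beside -0.23. In CD140a(+)/Sca1(-) cells 24 of 81 were higher as well, beside 23.5% of all genes, and the median was -0.55, beside -0.76. These are differences between 1 library and 1 library and have no test. There were 47 members that were higher after injury in CD140a(+)/Sca1(+) and lower in CD140a(-)/Sca1(+) cells, 58.0% of the members tested, while the same held for 31.2% of all tested genes.

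Scaling the libraries to equal upper quartiles reduced the difference in CD140a(+)/Sca1(+) cells to a median of 0.33 with 57 of 81 members higher, beside a median of -0.09 over all genes. Among abundant genes (mean of 100 normalized counts or more), the median in these cells was 0.81 over 45 members and 0.33 over 3467 tested genes. The control CD140a(+)/Sca1(+) library was also the one with the most RNA of red blood cells, whose marker list held 0.0308% of the injured and 0.587% of the control library, and of endothelial cells, with 0.00822% of the injured and 0.121% of the control library. Ly6a was at 4099 normalized counts in the injured and 253 in the control library of this population. The study's text reports the lowest sorting enrichment for the control CD140a(+)/Sca1(+) population. The part of other cells and of the sort in the difference was not tested.

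**Figure D1:**
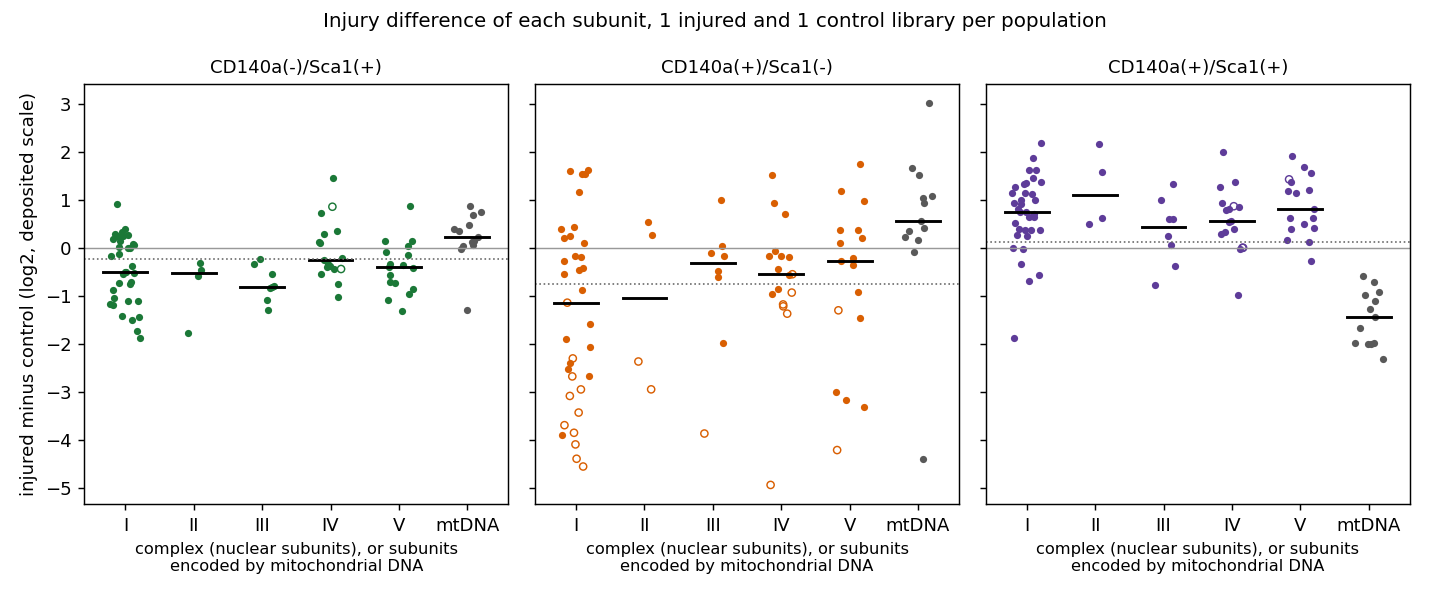
Injured minus control difference (log2, deposited scale) of each tested nuclear subunit gene by complex and of the 13 subunit genes of mitochondrial DNA, in one panel per population; the bars are medians, the dotted line is the median over all tested genes, and open circles are genes at 0 in one of the libraries. The nuclear subunits lie mostly above 0 in CD140a(+)/Sca1(+) cells (68 of 81) and the mitochondrially encoded ones below it (13 of 13).

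Few members differed by 3-fold or more on the deposited log2 scale in the Sca1(+) populations. A gene without reads stands at 5.93 on the linear form of that scale. Differences of genes with few reads are therefore smaller there than in normalized counts. Some members not counted below pass 3-fold in normalized counts. Examples are Ndufa4l2 in CD140a(-)/Sca1(+) cells (20.3 against 2.62) and Ndufa13 in CD140a(+)/Sca1(+) cells (41.3 against 11.5). The counts below are all on the deposited scale. In CD140a(+)/Sca1(+) cells, 8 members were at least 3-fold higher, beside 10.4% of all tested genes, and 1 was at least 3-fold lower, beside 6.07%. In CD140a(-)/Sca1(+) cells, none was 3-fold higher, beside 1.97%, and 3 were 3-fold lower, beside 4.35%. In CD140a(+)/Sca1(-) cells, 3 were 3-fold higher, beside 8.31%, and 26 were 3-fold lower, beside 29.4%; 15 of the 26 were at 0 after injury.

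Summed, the 84 genes held 1.10% of all normalized counts in injured and 0.675% in control CD140a(+)/Sca1(+) cells, a ratio of 1.64. They held 0.697% in injured and 0.838% in control CD140a(-)/Sca1(+) cells, a ratio of 0.832. In CD140a(+)/Sca1(-) cells the shares were 1.05% after injury and 0.971% in control, a ratio of 1.08. The control libraries thus covered a range of 0.675% to 0.971% and the injured ones 0.697% to 1.10%, so that the states overlapped. By complex, the ratio in CD140a(+)/Sca1(+) cells was 1.67 for complex I, 2.49 for complex II, 1.03 for complex III, 1.63 for complex IV and 1.86 for complex V. In CD140a(-)/Sca1(+) cells all 5 ratios were under 1, with complex III the lowest at 0.654 and complex IV the highest at 0.990.

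**Figure D2:**
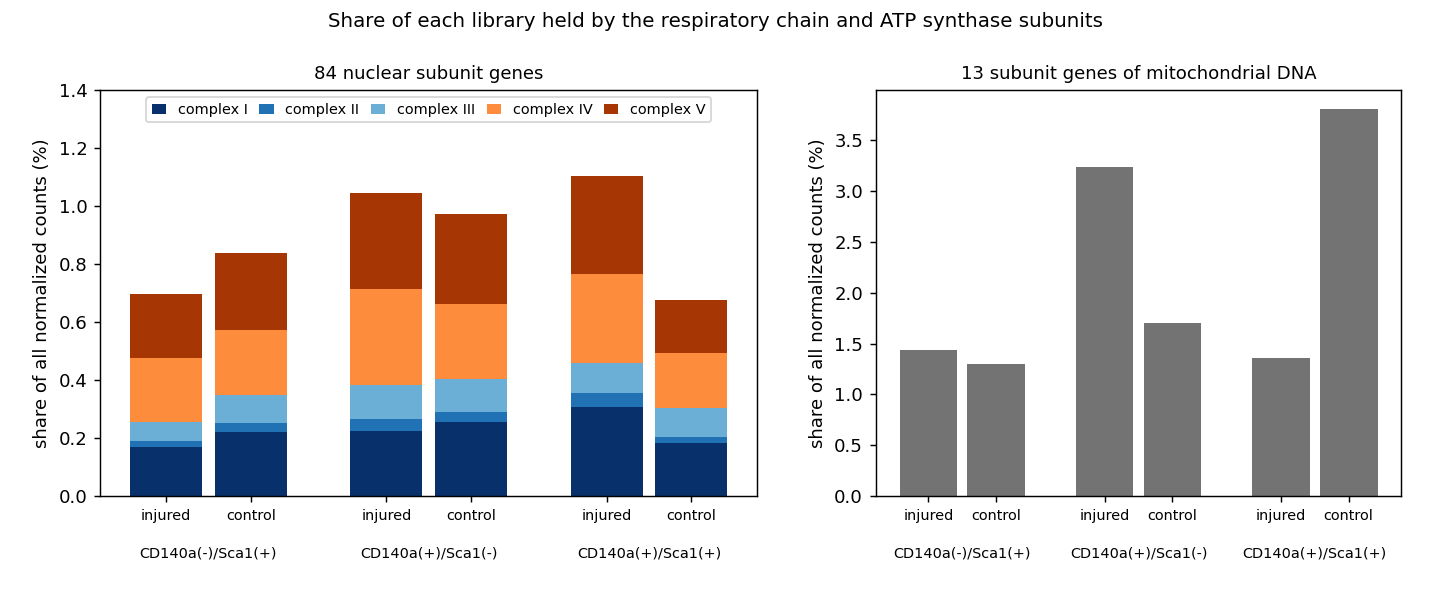
Share of all normalized counts (%) held by the 84 nuclear subunit genes, stacked by complex, and by the 13 subunit genes of mitochondrial DNA, in the injured and control library of each population. In CD140a(+)/Sca1(+) cells the nuclear share was 1.10% after injury against 0.675% in control, and the mitochondrial share 1.36% against 3.80%.

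The 13 subunits encoded by mitochondrial DNA differed in sign from the nuclear ones in both Sca1(+) populations. In CD140a(+)/Sca1(+) cells all 13 were lower after injury, with a median difference of -1.45 and a share of 1.36% of the injured against 3.80% of the control library. In CD140a(-)/Sca1(+) cells 11 of 13 were higher after injury, with a median of 0.23 and shares of 1.44% and 1.29%. In CD140a(+)/Sca1(-) cells 11 of 13 were higher, with a median of 0.55 and shares of 3.23% and 1.71%. The highest means were those of mt-Co2, mt-Co1 and mt-Nd4. The catalytic complex IV subunit mt-Co1 had 4764 and 3606 normalized counts in injured and control CD140a(-)/Sca1(+) cells, 7339 and 6316 in CD140a(+)/Sca1(-) cells and 3297 and 13073 in CD140a(+)/Sca1(+) cells. Among the exceptions in CD140a(+)/Sca1(-) cells was mt-Atp8, a small subunit of ATP synthase, with 6.87 normalized counts after injury against 337 in control. None of the 13 was called in limma in any of the 3 comparisons.

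Complex I has a catalytic core of 7 nuclear subunits, which carry the flavin and the iron-sulfur clusters, and a shell of 28 accessory ones in this set. In CD140a(+)/Sca1(+) cells 25 of the 28 accessory and 4 of the 7 core subunits were higher after injury, with medians of 0.86 and 0.36. On the deposited log2 scale, the accessory subunit Ndufb3 had the largest difference of all members in these cells, 2.18. It had 1042 normalized counts after injury against 222 in control. In CD140a(-)/Sca1(+) cells it was at 237 against 667 and in CD140a(+)/Sca1(-) cells at 189 against 595. Ndufb3 was therefore at 4.70 times the control in one population and at 0.355 and 0.318 times the control in the other two. Ndufa2, the other complex I member with a high mean, was at 375, 513 and 380.5 normalized counts in injured CD140a(-)/Sca1(+), CD140a(+)/Sca1(-) and CD140a(+)/Sca1(+) cells, against 317, 375 and 165 in the controls of the same populations.

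Across all tested members, 7 were higher after injury in each of the 3 populations, beside 7.92% of all tested genes, and 7 were lower in each, beside 20.2%. In complex I these were Ndufa2, Ndufa11 and Ndufb11 on one side and Ndufa12, Ndufs5 and Ndufs8 on the other. Ndufa11, an accessory subunit of the membrane arm, was at 279, 568 and 197 normalized counts in injured CD140a(-)/Sca1(+), CD140a(+)/Sca1(-) and CD140a(+)/Sca1(+) cells, against 266, 189.5 and 56.5 in the controls. Its fitted change was 1.07 (SE 0.55, adjusted p = 0.655 in limma), and the states overlapped. Ndufb11, also of the membrane arm, was at 48.1, 123 and 52.5 after injury, against 38.2, 48.8 and 30.0 in control, a change of 0.69 (SE 0.50, adjusted p = 0.697 in limma).

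Ndufs8, a core subunit with iron-sulfur clusters, went the other way, at 4.68, 16.7 and 22.3 normalized counts in injured CD140a(-)/Sca1(+), CD140a(+)/Sca1(-) and CD140a(+)/Sca1(+) cells against 21.2, 28.9 and 110.3 in control. Its change was -1.21 (SE 0.52, adjusted p = 0.636 in limma); the control value of CD140a(-)/Sca1(+) cells lay within the injured range. Ndufs5, an accessory subunit, was at 64.5, 1.96 and 148 after injury against 73.7, 145 and 148 in control. Nearly all of its change of -1.36 (SE 0.87, adjusted p = 0.682 in limma) came from the injured CD140a(+)/Sca1(-) library.

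Complex II, succinate dehydrogenase, has 4 subunits, all nuclear, and joins the citric acid cycle to the chain. All 4 were higher after injury in CD140a(+)/Sca1(+) cells and all 4 lower in CD140a(-)/Sca1(+) cells. Sdha, the flavoprotein, was at 164, 349 and 540.5 normalized counts in injured CD140a(-)/Sca1(+), CD140a(+)/Sca1(-) and CD140a(+)/Sca1(+) cells against 254, 238 and 112 in control. Sdhb, the iron-sulfur subunit, was at 6.43, 0 and 27.6 against 44.0, 19.9 and 16.8. The catalytic pair had the same order in both Sca1(+) populations. Of the membrane anchors, Sdhc was at 242, 508 and 394 after injury against 336, 420.0 and 253 in control, and Sdhd at 26.3, 0 and 81.6 against 35.4, 34.7 and 20.3. In limma none of the 4 passed a p under 0.05.

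Complex III passes electrons from ubiquinol to cytochrome c. Its 8 members were all lower after injury in CD140a(-)/Sca1(+) cells, with a median of -0.81, and 6 of 8 were higher in CD140a(+)/Sca1(+) cells, with a median of 0.43. Uqcrq, a small ubiquinone-binding subunit, was at 527, 775 and 836 normalized counts in injured CD140a(-)/Sca1(+), CD140a(+)/Sca1(-) and CD140a(+)/Sca1(+) cells against 924, 871 and 1096 in control. It was the only member with every injured library below every control library (1 of 81, beside 11.2% of all tested genes), and its change was small, -0.45 (SE 0.49, adjusted p = 0.756 in limma). Uqcr10, another small subunit, was at 15.6, 0 and 53.5 after injury against 22.1, 75.2 and 98.9 in control, a change of -1.66 (SE 0.79, adjusted p = 0.649 in limma) that includes a library listed at 0. Uqcrh, the hinge protein, was high in CD140a(+)/Sca1(-) cells, at 824 after injury against 409.7 in control, and stood at 120.1 against 224 in CD140a(-)/Sca1(+) and 256 against 244 in CD140a(+)/Sca1(+) cells.

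Complex IV, cytochrome c oxidase, reduces oxygen. Of its 11 widely expressed nuclear subunits, 10 were higher after injury in CD140a(+)/Sca1(+) cells, with a median of 0.78, and 4 in CD140a(-)/Sca1(+) cells, with a median of -0.34. Cox7b, a small subunit of the membrane part (chrX:106015700-106022450, plus strand, GRCm38), had 420.1, 878 and 699 normalized counts in injured CD140a(-)/Sca1(+), CD140a(+)/Sca1(-) and CD140a(+)/Sca1(+) cells, against 249.7, 300 and 168 in control. All injured libraries lay above all control libraries, which held for 3 of 81 members (Cox7b, Atp5a1 and Atp5o) beside 4.18% of all tested genes. The change of Cox7b was 1.41 (SE 0.52, adjusted p = 0.589 in limma), under the 3-fold limit.

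Cox6c and Cox6b1 had the highest means in complex IV. Cox6c was at 1420.3, 2811 and 1254 normalized counts in injured CD140a(-)/Sca1(+), CD140a(+)/Sca1(-) and CD140a(+)/Sca1(+) cells against 1165, 1472 and 991 in control, a change of 0.52 (SE 0.49, adjusted p = 0.733 in limma). Its 3' end overlaps Vps13b on the opposite strand. Cox6b1 was at 794, 926 and 1593 after injury against 943, 971 and 925 in control, so that a single injured library stood out. Ndufa4, first described in complex I and now placed in complex IV, was lower after injury in each population, at 51.5, 158 and 173 against 116, 240.2 and 175, a change of -0.53 (SE 0.50, adjusted p = 0.731 in limma). Cox7a2l, a factor that joins complexes III and IV into supercomplexes, was at 171, 466 and 451 after injury against 235, 280.1 and 168 in control.

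Complex V, ATP synthase, has a catalytic F1 head, a rotor ring of c subunits and a stalk that holds the head still. In CD140a(+)/Sca1(+) cells 16 of 17 members were higher after injury, and in CD140a(-)/Sca1(+) cells 4 of 17. Atp5o, the stalk subunit that confers oligomycin sensitivity (chr16:91925214-91931687, minus strand, GRCm38), had 106, 231 and 93.1 normalized counts in injured CD140a(-)/Sca1(+), CD140a(+)/Sca1(-) and CD140a(+)/Sca1(+) cells, against 52.8, 60.9 and 24.6 in control. The states did not overlap, and the change was 1.39 (SE 0.50, adjusted p = 0.579 in limma). An antisense gene, Gm15976, overlaps the end of Atp5o, and the counting setting for strand is not given in the sources used here.

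The other named members of complex V had smaller fitted changes. Atp5a1, the alpha subunit of the head, had 765, 867 and 1026 normalized counts in injured CD140a(-)/Sca1(+), CD140a(+)/Sca1(-) and CD140a(+)/Sca1(+) cells against 688, 755 and 664 in control, a change of 0.32 (SE 0.48, adjusted p = 0.815 in limma). Atp5c1, the central gamma subunit that turns in the head, was lower in each population, at 30.7, 36.3 and 81.4 against 69.5, 119 and 100.4, a change of -0.89 (SE 0.51, adjusted p = 0.677 in limma). The c-ring genes Atp5g1, Atp5g2 and Atp5g3 encode the same mature protein, and all 3 were higher after injury in CD140a(+)/Sca1(+) cells and lower in CD140a(-)/Sca1(+) cells. Atp5g1 was at 619 against 185 in CD140a(+)/Sca1(+) and 269.8 against 694 in CD140a(-)/Sca1(+) cells. Atp5g3 was at 1489 against 641 and at 899 against 1000.2 in the same order. Atp5l, a small membrane subunit with the highest mean in complex V, was at 1096, 1678 and 1416 after injury against 1383, 1291 and 545 in control.

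**Figure D3:**
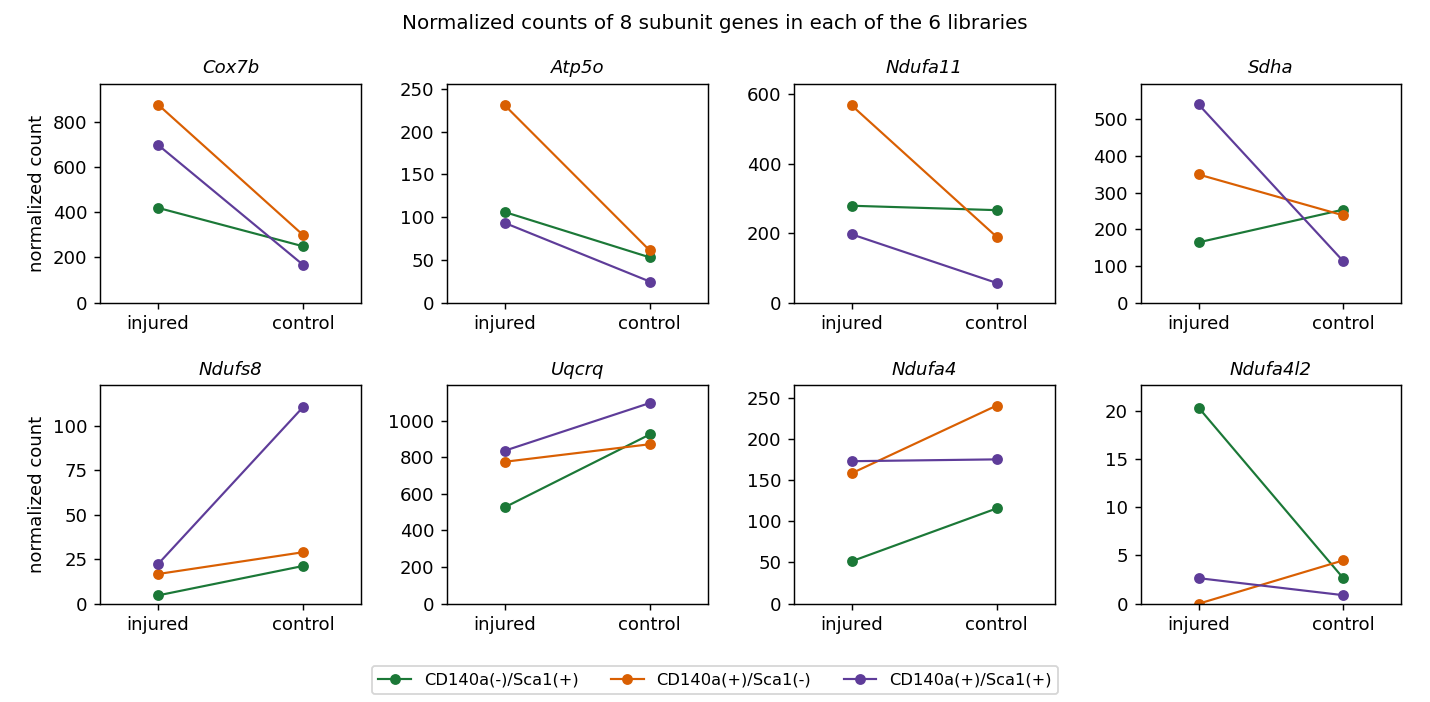
Normalized counts of 8 subunit genes in the 6 libraries, injured left and control right, with a line joining the libraries of each population; each panel starts at 0 and has its own scale. Cox7b and Atp5o were higher after injury in each population without overlap, Sdha was at 540.5 against 112 in CD140a(+)/Sca1(+) and 164 against 254 in CD140a(-)/Sca1(+) cells, and Ndufa4l2 was high in injured CD140a(-)/Sca1(+) cells only (20.3).

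Nuclear genes of the respiratory chain are known targets of NRF1, of GABPA (NRF2), of YY1 and of the estrogen-related receptors (ERR), whose short sites lie near their start. Promoter windows of RefSeq (GRCm38.p6), 250 bases before to 50 after the start, were found for 64 of the 81 tested members and for 12030 tested genes. Searched on both strands, GCGCATGC for NRF1 was in the windows of 10 members (15.6%) and 5.19% of all genes, CCGGAAG for GABPA in 16 (25.0%) and 16.9%, AAGATGGC for YY1 in 9 (14.1%) and 4.48%, and AAGGTCA for ERR in 8 (12.5%) and 4.0%. At least one of the 4 was in 33 members (51.6%) and 27.2% of all genes. Shown are the 250 bases before the start, 5' to 3' on the strand of the gene, of the 3 members with the largest mean change among those higher in every population, and of Atp5l, whose window holds 3 of the 4 motifs. Capitals mark a motif or its reverse complement: in Ndufa11 the NRF1 letters, and in Atp5l the NRF1, GABPA and ERR letters in this order.
Cox7b (chrX:106015450-106015699, plus strand): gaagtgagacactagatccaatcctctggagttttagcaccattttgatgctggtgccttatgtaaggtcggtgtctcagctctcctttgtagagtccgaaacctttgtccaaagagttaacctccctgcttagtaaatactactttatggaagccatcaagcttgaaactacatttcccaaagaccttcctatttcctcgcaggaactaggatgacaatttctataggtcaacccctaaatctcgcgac
Atp5o (chr16:91931631-91931880, minus strand): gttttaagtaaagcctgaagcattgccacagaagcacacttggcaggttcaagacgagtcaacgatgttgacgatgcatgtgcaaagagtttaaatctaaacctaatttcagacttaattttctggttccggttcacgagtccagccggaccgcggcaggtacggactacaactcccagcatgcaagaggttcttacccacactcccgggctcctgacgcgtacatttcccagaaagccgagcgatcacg
Ndufa11 (chr17:56717512-56717761, plus strand): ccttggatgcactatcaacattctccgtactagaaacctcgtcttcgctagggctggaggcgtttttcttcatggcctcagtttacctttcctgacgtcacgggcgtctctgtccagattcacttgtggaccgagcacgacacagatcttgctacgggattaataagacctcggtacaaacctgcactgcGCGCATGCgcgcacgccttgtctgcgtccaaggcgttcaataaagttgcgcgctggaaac
Atp5l (chr9:44920743-44920992, minus strand): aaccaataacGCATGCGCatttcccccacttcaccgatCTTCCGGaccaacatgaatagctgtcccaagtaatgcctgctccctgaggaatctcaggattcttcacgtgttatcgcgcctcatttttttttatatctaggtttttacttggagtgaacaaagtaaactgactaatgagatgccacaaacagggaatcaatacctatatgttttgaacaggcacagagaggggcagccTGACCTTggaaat
None of the 4 motifs was found in the printed bases of Cox7b and Atp5o, which says only that these letters are not in these windows.

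The genes for these factors belong to a list of 13 regulators of mitochondrial biogenesis. Of these, 1 was called lower after injury, beside 3.46% of all tested genes. Ppargc1a, the coactivator PGC-1alpha, fell after injury to 1.09, 0 and 2.46 normalized counts in injured CD140a(-)/Sca1(+), CD140a(+)/Sca1(-) and CD140a(+)/Sca1(+) cells, against 4.19, 47.8 and 40.2 in control. Its change was -2.03 (SE 0.66, adjusted p = 0.555 in limma). Of the factors, Nrf1 was at 133, 9.72 and 143 after injury against 158, 102 and 148 in control, and Esrra, the receptor ERR alpha, at 30.4, 0 and 55.4 against 24.4, 53.7 and 115. Gabpa was at 101, 107 and 39.2 against 87.0, 73.2 and 80.3, and Yy1 at 304, 228 and 256 against 262, 346 and 348. Ppargc1a was thus lower after injury in each population. Most nuclear subunits were higher in CD140a(+)/Sca1(+) cells (68 of 81) and lower in CD140a(-)/Sca1(+) and CD140a(+)/Sca1(-) cells (24 of 81 higher in each). A link between them was not tested.

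The muscle, lung and testis isoforms had few or no reads. Cox6a2, the form of heart and muscle, had 5.12, 0 and 3.71 normalized counts in injured CD140a(-)/Sca1(+), CD140a(+)/Sca1(-) and CD140a(+)/Sca1(+) cells, against 2.62, 5.78 and 15.0 in control, while its widely expressed counterpart Cox6a1 had 152, 0 and 253 against 142, 170.2 and 206. Cox7a1, another muscle form, was at most 4.19, Cox8b at most 0.187 and the lung form Cox4i2 at most 2.57 normalized counts in any library. The testis forms Cox6b2, Cox7b2 and Cox8c were at most 0.877, 0.981 and 0. Their counterparts Cox4i1, Cox6b1, Cox7a2, Cox7b and Cox8a were at 55.9 or more in every library.

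Ndufa4l2, the hypoxia-induced relative of Ndufa4, had more reads in 1 library. It had 20.3 normalized counts in injured CD140a(-)/Sca1(+) cells (139 reads, exact 95% Poisson interval 17.1 to 24.0) against 2.62 in control (14 reads, 1.43 to 4.40), a 7.74-fold difference. Ndufa4 itself was at 51.5 against 116 in the same libraries. In CD140a(+)/Sca1(-) cells Ndufa4l2 was listed at 0 against 4.50, and in CD140a(+)/Sca1(+) cells it was at 2.65 against 0.883. The fitted change over the 3 populations was 0.21 (SE 0.65, adjusted p = 0.923 in limma). The intervals cover counting error only.

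The table had 24 of the 84 members at 0 in the injured CD140a(+)/Sca1(-) library, and 2 to 7 in each of the other 5. Cox6a1 was among them, at 0 after injury against 170.2 normalized counts in control, as were Ndufa6 (0 against 128), Ndufa9 (0 against 113) and Atp5k (0 against 98.4). No fold is given for them, since most tested genes were at 0 in this library. Of the tested members 27.2% were listed at 0 there, beside 55.3% of all tested genes, and the members are more abundant than most. Where the lowest of the other 5 libraries was at 20 or more, 11 of 65 members (16.9%) and 917 of 5209 other genes (17.6%) were at 0. By narrower classes, these were 8 of 18 (44.4%) and 649 of 2003 (32.4%) at 20 to under 50. At 50 to under 100 they were 2 of 15 (13.3%) and 202 of 1298 (15.6%), and at 100 or more 1 of 32 and 66 of 1908.

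**Figure D4:**
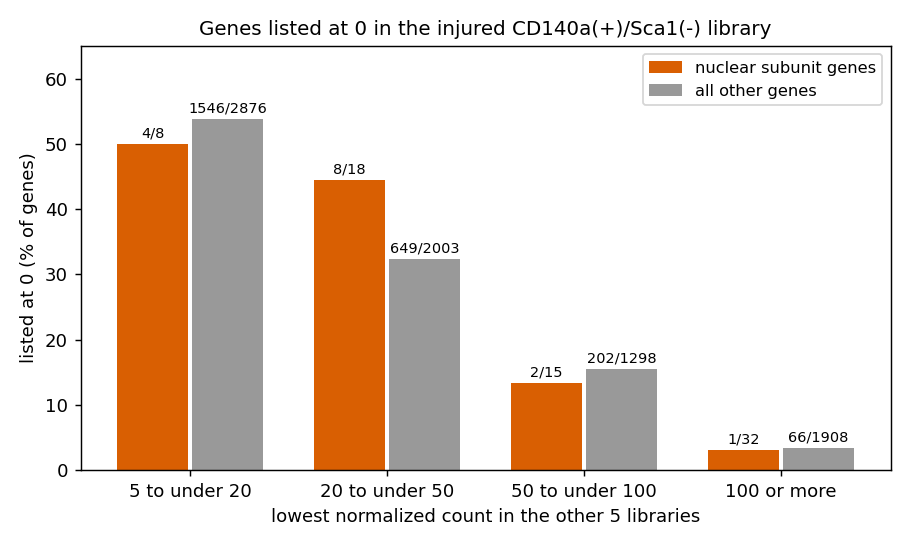
Genes at 0 in the injured CD140a(+)/Sca1(-) library (%), for nuclear subunit genes and all other genes, by the lowest normalized count in the other 5 libraries; the numbers above the bars are genes at 0 of genes in the class. Of genes with 100 or more in the other libraries, 1 of 32 members and 66 of 1908 other genes were at 0. Of genes with 20 to under 50, 8 of 18 members and 649 of 2003 other genes were at 0.

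Between the sorted populations, with the 2 states as replicates, 1 member was called. For CD140a(-)/Sca1(+) against the mean of the CD140a(+) populations, no member was called higher, beside 1.33% of all tested genes, or lower, beside 0.283%, and none had an unadjusted p under 0.05 in limma. The median difference was -0.08 over the members and 0.20 over all tested genes. It was -0.26 in injured cells, with 31 of 81 members higher in CD140a(-)/Sca1(+), beside a median of 0.22 and 58.1% of all tested genes. In control cells it was 0.07, with 47 of 81 (58.0%), beside 0.17 and 59.1% of all tested genes, so that the count of members was at the background there.

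For CD140a(+)/Sca1(-) against CD140a(+)/Sca1(+), no member was called higher, beside 0.837% of all tested genes, and 1 was called lower, beside 3.35%. This was Ndufa7, an accessory subunit of complex I, with 0 normalized counts in injured and 65.4 in control CD140a(+)/Sca1(-) cells, against 187 in injured and 127 in control CD140a(+)/Sca1(+) cells. The difference of -2.96 (SE 1.04, adjusted p = 0.711 in limma) rests on the library in which most genes were listed at 0, and without that library it was -1.25 and not called. In control cells, 64 of 81 members (79.0%) were higher in CD140a(+)/Sca1(-) than in CD140a(+)/Sca1(+) cells, beside 49.4% of all tested genes. The median was 0.55, beside 0.00 over all tested genes. In injured cells 20 of 81 (24.7%) were higher, beside 21.7% of all tested genes, so that the count was near the background there. The median was -0.66, beside -0.85. Of the 2 control libraries, the CD140a(+)/Sca1(+) one therefore held less of the members, which also enters its injury difference.

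Genes that build or serve the complexes were set beside the members. Of 45 tested assembly factors, 40 were higher after injury in CD140a(+)/Sca1(+) cells, with a median of 0.89, and of 75 mitochondrial ribosomal proteins, which translate the mitochondrially encoded subunits, 68 were higher, with a median of 0.87. In CD140a(-)/Sca1(+) cells these were 13 of 45 and 17 of 75, with medians of -0.41 and -0.46. Over all tested genes, 54.0% were higher in CD140a(+)/Sca1(+) cells (median 0.11) and 36.8% in CD140a(-)/Sca1(+) cells (median -0.23). No assembly factor was called after injury; the most abundant, Ndufaf4, Coa5 and Ndufaf8, averaged 296, 178 and 169 normalized counts over the 6 libraries. Of the 75 ribosomal proteins 1, Mrpl14, was called higher, beside 2.3% of all tested genes. It had 29.1, 121 and 74.7 normalized counts after injury against 29.2, 16.1 and 5.30 in control. Mrpl45 and Mrpl55 were called lower, 2 of 75, beside 3.46% of all tested genes. Both lists thus had the signs of the members in both Sca1(+) populations. The 13 regulators did not, with 5 higher in CD140a(+)/Sca1(+) cells (median -0.34) and 6 in CD140a(-)/Sca1(+) cells (median -0.18). Of 17 genes of pyruvate dehydrogenase and the citric acid cycle, 14 were higher in CD140a(+)/Sca1(+) cells, with a median of 0.70, and 4 in CD140a(-)/Sca1(+) cells, with a median of -0.16, and none was called after injury, the most abundant being Sucla2, Cs and Pdha1. Of 16 electron carriers and genes for their synthesis, 1 was called higher, Coq3, a methyltransferase of ubiquinone synthesis, with 39.5, 357 and 76.8 normalized counts in injured CD140a(-)/Sca1(+), CD140a(+)/Sca1(-) and CD140a(+)/Sca1(+) cells against 20.8, 27.6 and 27.4 in control. Of the 16, 12 were higher in CD140a(+)/Sca1(+) cells, with a median of 0.72, and 8 in CD140a(-)/Sca1(+) cells, with a median of -0.01. Cycs, cytochrome c itself, was at 537, 951 and 859.5 against 949, 839 and 463.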

How the data were processed

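Libraries of mRNA 3' ends (6 in all, 1 per population and state) were analysed from a single deposited table of 22483 genes. The deposited table is on a log2 scale, which the authors reached from read counts by DESeq2 (size factors, then a variance stabilizing transformation), after trimming with FastX-Toolkit and alignment with STAR to GRCm38. The transformation was undone to give normalized counts, and 55.8% to 63.7% of low values per library lay within 0.02 reads of a whole number, so count models were not used. limma 3.58.1 in R 4.3.3 was fitted to the deposited log2 values with population as block, over 15532 genes whose 80th percentile was at least 8 on the linear form of that scale, on which a gene without reads stands at 5.93. The population contrasts had state as block. Benjamini-Hochberg adjustment ran over all 15532 genes, and the call (unadjusted p under 0.05, at least 3-fold) is no control of false discoveries. The scripts were tested on simulated data.

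The members and gene lists were chosen with earlier results of these data known. Named were members called in any contrast, tissue-restricted isoforms and their counterparts, the 4 succinate dehydrogenase genes, per complex the 2 members with the highest mean and the 2 that changed most either way of those with the same order in all 3 populations, and for the other lists up to 3 genes called or, with none called, of highest mean. Cox7a2l, Atp5g1, Atp5g2, mt-Atp8, the motif factors, Cycs and the genes at 0 were named after their values were seen. Alternatives were other pseudocounts, filters, scalings, a trended prior, no block and leaving out libraries. Gene positions are from GENCODE M21 (22453 identifiers matched). In 16 members another gene overlaps the last 500 bases.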

Additional observations from a re-analysis of the deposited data

Results flagged for a closer look

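The share of all normalized counts held by the nuclear subunits, injured over control, lay on different sides of 1 in the populations: 0.832 in CD140a(-)/Sca1(+) cells, 1.08 for CD140a(+)/Sca1(-) cells and 1.64 for CD140a(+)/Sca1(+) cells. The share of the mitochondrially encoded subunits lay on the other side of 1 in both Sca1(+) populations and on the same side in CD140a(+)/Sca1(-) cells, at 1.11 in CD140a(-)/Sca1(+) cells, 1.89 for CD140a(+)/Sca1(-) cells and 0.357 for CD140a(+)/Sca1(+) cells. With 1 library per population and state these differences were not tested.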

How the results depend on the processing

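Of the values recomputed under the alternatives, 355 kept their call and size, 15 moved, 2 became called, 3 lost their call and none changed sign with a call; the cause of the moves was not tested. After injury, members called lower numbered 1 of 81 with a trended prior (1.23%, beside 3.83% of all tested genes). They numbered 0 to 5 when each replicate was left out. The 5 (6.17%, beside 3.62%) came without the CD140a(+)/Sca1(+) libraries, in a fit that kept the injured CD140a(+)/Sca1(-) library with most tested genes at 0. Members called higher numbered 2 with no fold limit (Cox7b and Atp5o, 2.47%, beside 2.93%) and 0 when each replicate was left out, and the median over the members was -0.48 to 0.17 when each was left out. The change of Cox7b was 1.12 to 1.75 over all alternatives, with unadjusted limma p of 0.0188 to 0.166, and that of Atp5o 1.22 to 1.65, with 0.0158 to 0.119.

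For CD140a(+)/Sca1(-) against CD140a(+)/Sca1(+), members called lower numbered 5 with a trended prior (6.17%, beside 3.59% of all tested genes), 0 with a pseudocount of 0.5 (beside 4.69%), 0 among members with reads in all 6 libraries and 0 in each fit that left a replicate out (beside 1.35% and 2.14%); Ndufa7 was at -4.76 with the pseudocount of 0.5, -2.96 without the CD140a(-)/Sca1(+) libraries and -1.25 without the injured CD140a(+)/Sca1(-) library, the last chosen after seeing the data. For CD140a(-)/Sca1(+) against the CD140a(+) populations, the median over the members was -0.35 to -0.14 when replicates were left out. Without the block of population or state no call changed (0 members higher and 0 lower after injury). The pairing of injured and control libraries is by population, which was the block. The injured CD140a(+)/Sca1(-) library had 55.3% of tested genes at 0 and the control CD140a(+)/Sca1(+) library 8.23% at nearly the same depth (3 reads equal 2.94 and 2.65 normalized counts).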
